A study of Mus musculus with 6 samples.

Results

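Glutathione transferases of the alpha, mu and theta classes were examined in mouse liver by taking every probe set whose platform gene symbol was one of 10 genes. The rule found 15 probe sets for the 10 genes, out of 34325 probe sets with 1 gene symbol for 18029 genes. The alpha class was represented by Gsta2, Gsta3 and Gsta4, the mu class by Gstm1, Gstm2, Gstm3, Gstm4 and Gstm6, and the theta class by Gstt1 and Gstt3. RNA came from livers of mice with a hepatocyte-specific deficiency of RECS1 (RECS1-HKO, n = 3) and of mice with the floxed gene (RECS1-flox, control, n = 3). The gene symbol for RECS1 is Tmbim1. All 6 animals were C57BL/6 mice, 16 weeks of age, that had eaten a high-fat diet (HFD) during their last 8 weeks. The series text calls the samples biological. The sources used here do not give the sex of the animals or how the floxed gene was deleted in hepatocytes.

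Glutathione transferases join the tripeptide glutathione to electrophilic compounds, which makes drugs, carcinogen epoxides and products of lipid peroxidation more soluble. Enzymes of the alpha and mu classes are abundant in hepatocytes and also reduce some organic hydroperoxides, while theta enzymes act on small halogenated compounds. Many of these genes respond to the transcription factor NRF2 through antioxidant response elements and to the xenobiotic receptors CAR and PXR, and several are expressed differently in male and female mouse liver.

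Values are log2 signals that the authors computed with RMA, a method that brings all arrays to a common distribution. Array medians lay between 3.92 and 3.95. Arrays of the same genotype correlated at 0.995 to 0.996 over all genes, and arrays of different genotypes at 0.991 to 0.994. All 9 measured hepatocyte markers, among them Alb, Apoa1 and Ttr, lay above the median gene (4.69). In HKO livers Tmbim1 fell by 0.52 ± 0.08 (log2, SE), to 7.13 ± 0.07 in HKO livers against 7.65 ± 0.08 in control livers (SD, n = 3 each; limma, Benjamini-Hochberg adjusted p = 0.026), and no fit without 1 array kept it past the threshold (adjusted p 0.065 to 0.0967). The sources used here do not say whether this probe set lies in the deleted part of the gene. Precision is limited by having 3 arrays of each genotype, and with bulk RNA fewer cells of a type and less RNA per cell cannot be told apart.

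The promoters of 9 of the 10 genes, 14 windows in all, were matched by symbol to the RefSeq table (GRCm38.p6), each running from 250 bases before a transcript start to 50 bases after it. Those of Gsta2 and Gstm2 are shown because these genes passed the test, that of Gstm3 because it neighbours Gstm2, and that of Gsta3 because it held the only antioxidant response element core. They lie on the minus strand at chr9:78347096-78347395 (Gsta2), chr3:107986371-107986670 (Gstm2) and chr3:107969125-107969424 (Gstm3), and on the plus strand at chr1:21240335-21240634 (Gsta3). Capitals mark motif matches in Gsta2 and Gsta3, and the longest run of letters common to the windows of Gstm2 and Gstm3.
Gsta2: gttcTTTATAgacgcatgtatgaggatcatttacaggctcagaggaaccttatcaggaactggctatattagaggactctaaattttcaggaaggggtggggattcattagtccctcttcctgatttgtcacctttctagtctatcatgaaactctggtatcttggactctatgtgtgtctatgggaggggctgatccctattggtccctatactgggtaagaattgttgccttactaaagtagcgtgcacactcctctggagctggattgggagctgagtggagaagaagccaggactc
Gsta3: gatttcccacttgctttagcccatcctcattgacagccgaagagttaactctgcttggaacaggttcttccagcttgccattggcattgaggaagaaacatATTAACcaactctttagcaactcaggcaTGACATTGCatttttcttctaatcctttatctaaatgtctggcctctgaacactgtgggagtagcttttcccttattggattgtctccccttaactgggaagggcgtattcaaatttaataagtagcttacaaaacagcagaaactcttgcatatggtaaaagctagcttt
Gstm2: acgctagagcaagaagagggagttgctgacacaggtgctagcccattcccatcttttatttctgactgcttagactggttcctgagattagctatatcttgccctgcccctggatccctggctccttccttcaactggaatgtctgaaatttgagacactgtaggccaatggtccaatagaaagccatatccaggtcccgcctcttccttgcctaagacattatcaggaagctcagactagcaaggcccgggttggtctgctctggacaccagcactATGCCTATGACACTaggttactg
Gstm3: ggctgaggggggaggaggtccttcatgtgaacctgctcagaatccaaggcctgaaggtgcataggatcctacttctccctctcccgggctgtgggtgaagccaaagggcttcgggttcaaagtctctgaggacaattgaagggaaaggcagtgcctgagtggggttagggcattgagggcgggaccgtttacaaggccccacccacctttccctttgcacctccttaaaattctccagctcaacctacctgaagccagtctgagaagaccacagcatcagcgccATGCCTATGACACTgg

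In all, 5 motifs were searched on both strands. The search began with the first 2 below, and the other 3 were added after those gave 1 match among the members. The antioxidant response element core TGACNNNGC was found in Gsta3 alone, as TGACATTGC at bases 130 to 138 of its window, and 12.4% of 32851 RefSeq promoter windows hold it. The AP-1 site TGANTCA, which can overlap the antioxidant response element, was in none of the 14 windows and in 7.81% of all windows. Gsta3 also held the HNF1 core GTTAAT, on the other strand at bases 102 to 107 (7.1% of all windows). The STAT site TTCNNNGAA was in 1 window of Gstm6 (8.3% of all windows). The TATA box TATAAA was in 1 window of Gstm1, and on the other strand at bases 5 to 10 of Gsta2 (13.6% of all windows). Gstm2 and Gstm3 shared a run of 14 bases, at bases 278 to 291 and 285 to 298 of their windows, which was noticed on comparing the windows and has no background share. In both windows the run lies among the 50 bases after the transcript start, and it begins with ATG. Whether it is coding sequence was not tested. Only this pair of windows was searched for a common run. A longer run, tgagaagaccacagca, stands in the window of Gstm3 and in a window of Gstm1, so shared letters are not particular to Gstm2 and Gstm3. A match is a description of letters, and no match says only that the letters are not in these windows.

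The comparison of HKO with control livers asks which glutathione transferase transcripts differ when hepatocytes lack RECS1 under a high-fat diet. Gsta2 and Gstm2 rose in HKO livers, to 2.74 and 2.19 times the control level, and no member fell (limma, Benjamini-Hochberg adjusted p under 0.05 over all genes). All 10 members had a positive log2 fold change, from 0.09 to 1.45 with a median of 0.33, whereas 48.8% of all genes were positive and their median was -0.00. The share of members called, 2 of 10, stands beside 1.01% of all genes called in either direction and 0.56% called higher in HKO livers. In 8 of the 10 members every HKO array lay above every control array, which was so for 8.58% of all genes. Over the 15 probe sets, 2 passed, beside 0.72% of all probe sets, and all 15 were positive. The exceptions to the separation of the arrays were Gsta4 and Gstm4. The members were proposed with results of these data known, and members of a class are related genes and not replicates, so no test over them is given.

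**Figure D1:**
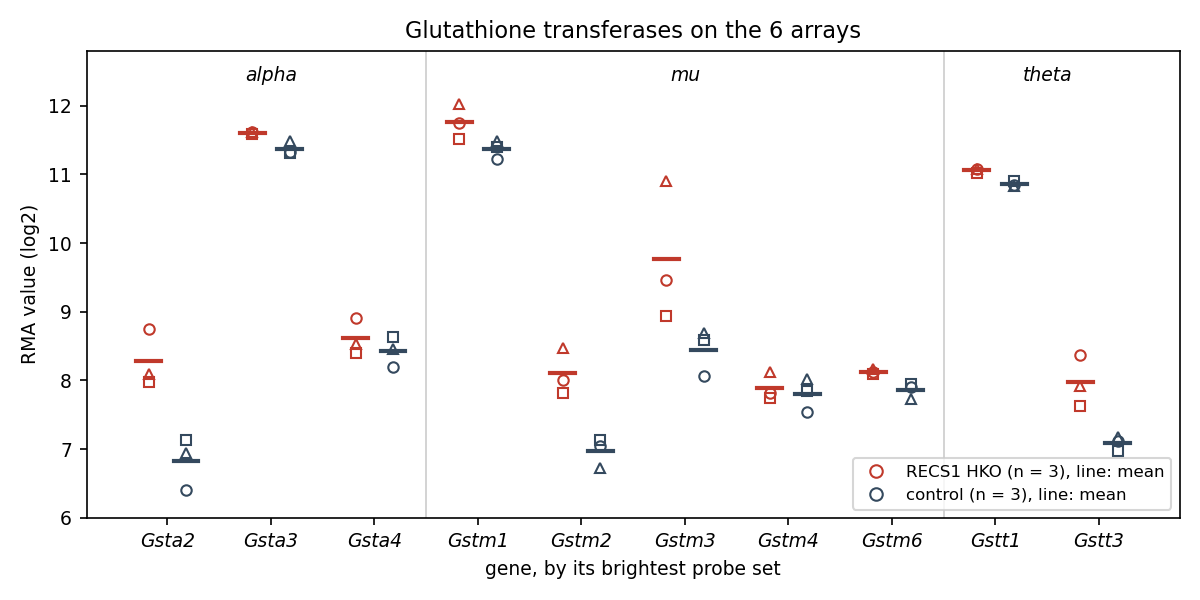
Log2 RMA value (vertical axis) of each of the 10 genes by its brightest probe set (horizontal axis, by class), with RECS1 HKO arrays in red at the left and control arrays in grey at the right of each gene. Points are arrays 1 (circle), 2 (square) and 3 (triangle) and lines are group means; the groups overlap in Gsta4 and Gstm4 only.

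In the alpha class, Gsta2, an enzyme that conjugates electrophiles and reduces lipid hydroperoxides, showed the largest difference of the 10 members. It had log2 values of 8.75, 7.98 and 8.10 in HKO livers, against 6.40, 7.13 and 6.95 in control livers. Every HKO value lay above every control value, and the lowest of the 6 arrays was control 1. The mean was 8.28 ± 0.42 in HKO livers and 6.83 ± 0.38 in control livers (SD, n = 3 each), which gave 1.45 ± 0.24 as the log2 fold change (SE; 95% confidence interval 0.91 to 2.00; limma adjusted p = 0.036). With 1 array fewer, Gsta2 passed without HKO 2 (adjusted p = 0.0478) but not without HKO 1 (0.0966), HKO 3 (0.0822), control 1 (0.0989), control 2 (0.0636) or control 3 (0.105), with log2 fold changes from 1.21 to 1.60. It did not pass with eBayes's trend and robust options either (0.0962). Its close relative Gsta1, which neighbours it on the chromosome, has no single-gene probe set and was not analysed here. Whether the only probe set of Gsta2 also takes up signal from Gsta1 was not tested.

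Gsta3, which in mice is known for detoxifying the epoxide of aflatoxin, had values of 11.61, 11.59 and 11.62 in HKO livers, against 11.33, 11.30 and 11.49 in control livers. The HKO arrays lay close together and above all control arrays, but the difference was small, with a log2 fold change of 0.23 ± 0.08 that did not pass (adjusted p = 0.256). Its other probe set stood at 0.26 ± 0.09 (0.323 in the fit over probe sets). Gsta4, which conjugates the lipid peroxidation product hydroxynonenal, had values of 8.92, 8.40 and 8.53 in HKO livers, against 8.19, 8.63 and 8.46 in control livers. The groups overlapped, since only HKO 1 lay above the highest control. Its log2 fold change was 0.19 ± 0.15, with an interval from -0.17 to 0.54 (adjusted p = 0.670), and 0.04 without HKO 1.

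In the mu class Gstm2 rose. Gstm2 had log2 values of 8.01, 7.82 and 8.48 in HKO livers, against 7.05, 7.14 and 6.73 in control livers. The groups did not overlap, and HKO 3 was the highest array. The mean was 8.10 ± 0.34 in HKO livers and 6.97 ± 0.22 in control livers (SD, n = 3 each), which gave 1.13 ± 0.17 as the log2 fold change (SE; 95% confidence interval 0.73 to 1.53; limma adjusted p = 0.0289). Gstm2 passed without HKO 2 (0.0259) and without HKO 3 (0.0439), but not without HKO 1 (0.114), control 1 (0.0969), control 2 (0.0727) or control 3 (0.101), with log2 fold changes from 0.94 to 1.27.

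Gstm3 had a mean difference larger than that of Gstm2 but far less even. It had values of 9.46, 8.94 and 10.91 in HKO livers, against 8.06, 8.60 and 8.69 in control livers. HKO 3 stood well above the other arrays, while HKO 2 lay just above control 3. The mean was 9.77 ± 1.02 in HKO livers and 8.45 ± 0.34 in control livers (SD, n = 3 each), and the log2 fold change of 1.32 ± 0.44 did not pass (adjusted p = 0.257). Without HKO 3 it was 0.75, and over the 6 fits without 1 array it ran up to 1.74. Its dimmer probe set gave 1.24 ± 0.37 (0.235 in the fit over probe sets), so both probe sets of Gstm3 differed by more than 1 log2 unit.

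Gstm1, an abundant mu enzyme of mouse liver, had values of 11.75, 11.52 and 12.02 in HKO livers, against 11.23, 11.40 and 11.49 in control livers. The groups did not overlap, with HKO 2 just above control 3. The log2 fold change of its brightest probe set was 0.39 ± 0.13 and did not pass (adjusted p = 0.264). Its other 3 probe sets stood at 0.49 ± 0.17, 0.58 ± 0.18 and 0.77 ± 0.21, the largest being that of the dimmest probe set, and none passed (0.201 to 0.292 over all 4 in the fit over probe sets). Some probe sets of Gstm1 and Gstm3 carry the _x or _s suffix, with which Affymetrix marks probes that can match more than 1 transcript, so signal from related mu genes cannot be told apart there.

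Gstm6 had values of 8.12, 8.10 and 8.17 in HKO livers, against 7.90, 7.95 and 7.74 in control livers. Its arrays separated by genotype by a small margin, with a log2 fold change of 0.27 ± 0.08 (adjusted p = 0.222). Gstm4 had values of 7.81, 7.75 and 8.12 in HKO livers, against 7.54, 7.85 and 8.02 in control livers. The groups overlapped, and the log2 fold change of 0.09 ± 0.14 had an interval from -0.24 to 0.42 (0.834). It turned to -0.02 without HKO 3 and to -0.04 without control 1.

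The mu genes lie side by side on mouse chromosome 3, in the order Gstm5, Gstm7, Gstm6, Gstm3, Gstm2, Gstm1 and Gstm4 in the RefSeq gene table. The 2 differences above 1 log2 unit belonged to the neighbours Gstm3 and Gstm2, in the middle of this order. Toward the start of the order the values were 0.27 for Gstm6, 0.05 for Gstm7 (adjusted p = 0.840) and 0.23 for Gstm5 (0.637), and toward its end 0.39 for Gstm1 and 0.09 for Gstm4. Whether neighbours differ from each other in their change was not tested.

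**Figure D2:**
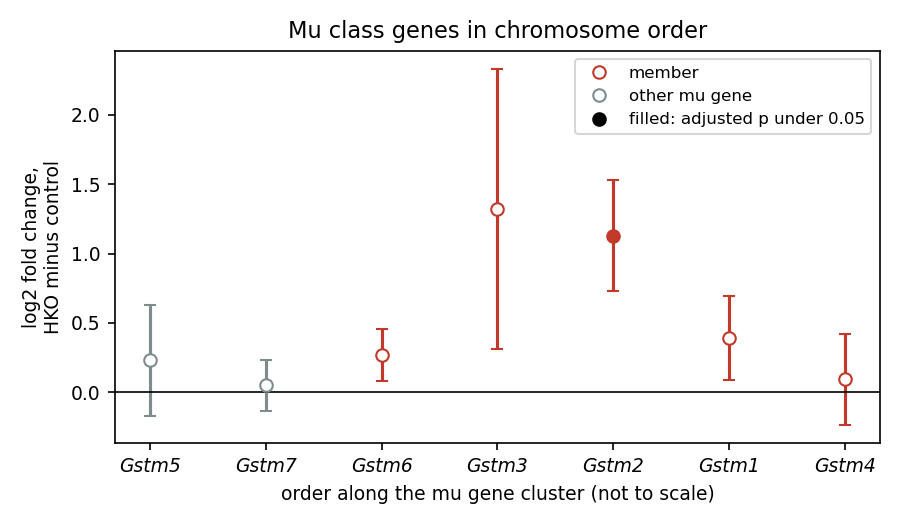
Log2 fold change, HKO minus control (vertical axis, points with 95% confidence intervals), of the 7 mu genes in chromosome order (horizontal axis, not to scale), members in red and the others in grey, filled where the adjusted p was under 0.05. Gstm3 (1.32) and Gstm2 (1.13) stand above their neighbours, and the interval of Gstm3 is the widest.

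In the theta class no member passed in the limma fit. Both had an unadjusted p under 0.05, a level that 8 of the 10 members and 13% of all genes reached. Gstt3 had values of 8.38, 7.63 and 7.92 in HKO livers, against 7.11, 6.98 and 7.18 in control livers. The groups did not overlap, and the HKO values were more spread (SD 0.38) than the control values (SD 0.11). Its log2 fold change was 0.88 ± 0.17, or 1.85 times the control level (adjusted p = 0.0635). Gstt3 passed without HKO 2 (1.06, adjusted p = 0.0259), after quantile normalization (0.0485) and among genes above the median gene only (0.0489). These were 1 of 6 fits without 1 array (adjusted p up to 0.218) and 2 of 9 other refits (up to 0.0722). Gstt1, which acts on halogenated methanes and related small compounds, had values of 11.08, 11.02 and 11.08 in HKO livers, against 10.84, 10.91 and 10.83 in control livers. Its arrays were tight within each genotype (SD 0.03 in HKO and 0.04 in control livers), and the log2 fold change of 0.20 ± 0.07 did not pass (0.272).

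Set side by side, each class held members with a difference near or above 1 log2 unit and members near 0.2. The class medians of log2 fold change were 0.23 for alpha, 0.39 for mu and 0.54 for theta, beside -0.00 for all genes. One gene of 3 in alpha, 1 of 5 in mu and 0 of 2 in theta passed. The mean over the alpha members was 9.76, 9.32 and 9.42 in HKO livers, against 8.64, 9.02 and 8.96 in control livers. The mean over the mu members was 9.03, 8.83 and 9.54 in HKO livers, against 8.36, 8.59 and 8.53 in control livers. The mean over the theta members was 9.73, 9.33 and 9.50 in HKO livers, against 8.98, 8.94 and 9.01 in control livers. The groups did not overlap in any class. Members of a class are not replicates, so the difference between classes was not tested.

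The HKO livers differed among themselves in a pattern that ran across the family. HKO 2 was the lowest HKO array in all 10 members, a count made after the values were seen, while over all genes it was the lowest in 34.2% and over the 101 genes higher in HKO livers in 57.4%. The pattern was not particular to the transferases, since HKO 2 was also the lowest HKO array in every raised gene of the lists below. Among the listed genes that fell, HKO 2 was the HKO array nearest the controls in Gstp1, C6, C8b and Cyp7b1, but not in Moxd1. HKO 3 was the highest HKO array in 5 of 5 mu members, in Gsta3 and in Gstt1, and HKO 1 was the highest in Gsta2, Gsta4 and Gstt3. No share over all genes is given for the highest HKO array. Of the raised genes in the lists below, HKO 3 was the highest in Abcc3, Nqo1, Cyp2b9 and Slco1a4. HKO 1 was the highest in Cyp2b13, Cyp2c38, Hao2, Slc22a27 and Acot3. The differences from the control mean in HKO 1, HKO 2 and HKO 3 were 1.93, 1.15 and 1.27 for Gsta2, 1.28, 0.54 and 0.83 for Gstt3, and 1.02, 0.49 and 2.46 for Gstm3. What sets the arrays of one genotype apart was not tested.

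**Figure D3:**
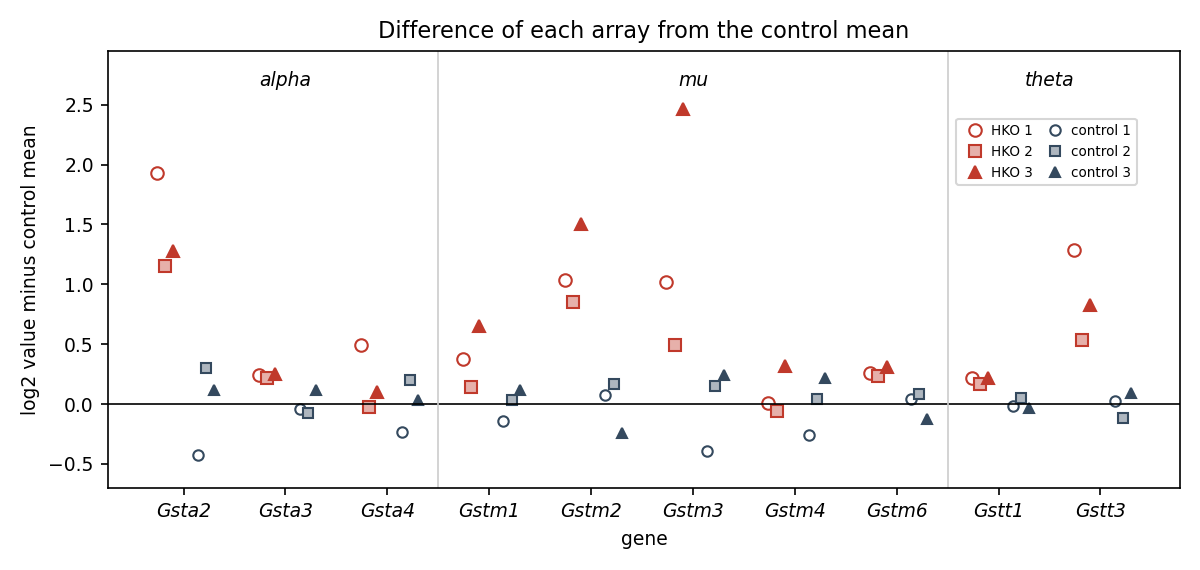
Log2 value of each array minus the mean of the control arrays (vertical axis) for the 10 genes (horizontal axis, by class), HKO arrays in red and control arrays in grey. HKO 2 (red squares) is the lowest HKO array in all 10 genes, and HKO 3 (red triangles) the highest in all 5 mu genes, reaching 2.46 in Gstm3.

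Other glutathione transferases did not all move the same way. Gstp1, the pi class enzyme that male mouse liver is known to express more than female liver, fell in HKO livers. Its values were 12.00, 12.39 and 12.18 in HKO livers, against 12.79, 12.90 and 12.91 in control livers, with no overlap. The log2 fold change was -0.68 ± 0.11, or 0.624 times the control level (adjusted p = 0.031). The related gene Gstp2 was not measured, and whether its signal enters the probe set of Gstp1 was not tested. Gstp1 passed without HKO 2 (0.0152) but not without HKO 1 (0.0966), HKO 3 (0.0979), control 1 (0.0889), control 2 (0.124) or control 3 (0.113). Its 95% confidence interval ran from -0.93 to -0.43, on the other side of 0 from those of Gsta2 and Gstm2.

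Of the 15 measured genes of this list, 1 fell, beside 0.449% of all genes, and 14 did not pass. The membrane-bound transferase Mgst3 had values of 8.21, 7.51 and 8.45 in HKO livers, against 6.46, 6.82 and 7.07 in control livers. Its log2 fold change of 1.28 ± 0.24 did not pass (adjusted p = 0.06). Mgst3 passed without HKO 2 (1.55, 0.0121), among genes above the median gene only (0.047) and when its probe sets were combined by their median (0.70, 0.0491). These were 1 of 6 fits without 1 array (up to 0.216) and 2 of 8 other refits. A second, dimmer probe set of Mgst3 stood at 0.12. The theta gene Gstt2 stood at 0.74 ± 0.20 (0.183), and the list median was 0.11.

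**Figure D4:**
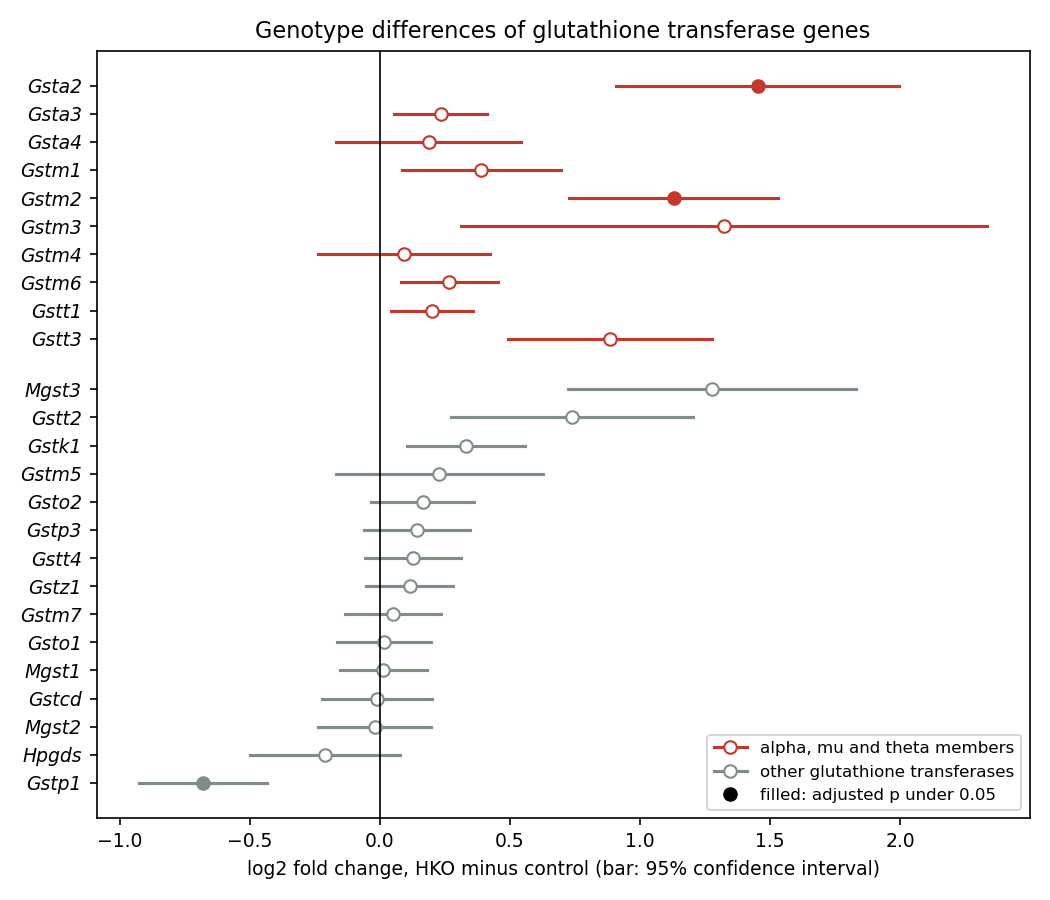
Log2 fold change, HKO minus control (horizontal axis, bars are 95% confidence intervals), of the 10 alpha, mu and theta members in red and 15 other glutathione transferase genes in grey below them, filled where the adjusted p was under 0.05. Gsta2 (1.45) and Gstm2 (1.13) lie to the right of 0 and Gstp1 (-0.68) to its left.

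Of 14 measured genes of glutathione synthesis and recycling none passed in the limma fit and 2 had an unadjusted p under 0.05, near the 13% of all genes at that level. Mat1a, which makes the methyl donor at the head of cysteine supply, stood at 0.49 ± 0.09 (adjusted p = 0.0547). In refits of all 6 arrays Mat1a passed by the median of a gene's probe sets (0.0459), after quantile normalization (0.0485), among genes above the median gene only (0.0356), with the trend and robust options (0.0128) and with array weights (0.0498). These were 5 of 8 such refits, and it passed in no fit without 1 array (0.0844 to 0.184). Gclc, the catalytic subunit of the rate-limiting step, stood at 0.38 ± 0.12 (0.238) and Chac2, a glutathione-degrading enzyme, at 0.13 ± 0.11 (0.677). Of 10 genes of glutathione peroxidases and other enzymes that use glutathione none passed, with 2 at an unadjusted p under 0.05 (13% of all genes). Gpx4, the phospholipid hydroperoxide peroxidase, stood at 0.34 ± 0.15 (0.379), the glyoxalase Hagh at -0.22 ± 0.09 (0.361) and the glutaredoxin Glrx5 at 0.16 ± 0.08 (0.456). The medians were 0.10 and -0.08.

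Of 16 measured genes that process or export conjugates, 1 rose, beside 0.56% of all genes. Abcc3, a basolateral exporter of organic anions, averaged 9.58 ± 0.11 in HKO livers and 8.93 ± 0.20 in control livers (SD, n = 3 each), so that the log2 fold change was 0.65 ± 0.11 (adjusted p = 0.0457). It passed without control 1 (0.038) and in none of the other 5 fits without 1 array (0.0737 to 0.168). The dipeptidase Cndp2 stood at -0.47 ± 0.10 (0.0933; 0.0462 with the trend and robust options) and the acetyltransferase gene Nat8f1 at -0.43 ± 0.12 (0.185). The list median was -0.07, and 11 of the 16 values were negative.

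None of 17 transcription factors that act on these genes passed in the limma fit, with 4 at an unadjusted p under 0.05 (13% of all genes). Nr1i3, which encodes CAR, averaged 8.29 ± 0.06 in HKO livers and 7.77 ± 0.17 in control livers (SD, n = 3 each), so that the log2 fold change was 0.52 ± 0.10 (adjusted p = 0.0616). It passed without control 1 (0.0322), among genes above the median gene only (0.0395) and with eBayes's trend and robust options (0.0257). These were 1 of 6 fits without 1 array (up to 0.217) and 2 of 8 other refits. Nfe2l2, which encodes NRF2, stood at 0.39 ± 0.12 (0.235) and the partner receptor Rxra at -0.27 ± 0.10 (0.281).

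Of 22 measured NRF2 targets other than glutathione transferases 2 rose, Abcc3 and the quinone reductase Nqo1, at 1.01 ± 0.18 (adjusted p = 0.0481), beside 0.56% of all genes. The control mean of Nqo1 (4.63) lies just below the median gene. Nqo1 passed without HKO 2 (0.0166) and in none of the other 5 fits without 1 array (0.0538 to 0.17). Osgin1, an oxidative stress-induced growth inhibitor gene, stood at -1.21 ± 0.23 (0.0635; 0.0402 without control 2). The list median was 0.26, with 20 of 22 values positive. Of 16 targets of CAR and PXR 5 rose, beside 0.56% of all genes, with a median of 0.35. They were the cytochromes Cyp2b9 (6.28 ± 0.20), Cyp2b13 (1.38 ± 0.15) and Cyp2c38 (1.53 ± 0.18), the uptake transporter Slco1a4 (1.66 ± 0.25) and Abcc3. The 3 cytochromes passed in all 6 fits without 1 array, and Slco1a4 in 1 of them. The control means of Cyp2b9 (3.46) and Cyp2b13 (3.86) lie below the median gene. Cyp2b10, the usual marker of CAR activity in mice, stood at 0.34 ± 0.10 (0.219). Its control mean (4.49) lies below the median gene too, and every HKO array lay above every control array. Abcc3 stands in 3 of the lists, and the female-biased list holds Cyp2b9 and Cyp2b13 too.

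Sex-biased liver genes were counted because several transferases are known to differ by sex. Of 10 measured female-biased genes 5 rose, beside 0.56% of all genes, with a median of 1.20. Of 11 male-biased genes 4 fell, beside 0.449% of all genes, with a median of -1.74. Hao2, a hydroxyacid oxidase (2.93 ± 0.25), the transporter gene Slc22a27 (2.31 ± 0.21) and the thioesterase Acot3 (2.36 ± 0.23) rose, as did Cyp2b9 and Cyp2b13. The control means of Hao2 (3.13), Slc22a27 (2.94) and Acot3 (4.33) lie below the median gene, where RMA shrinks differences, so the sizes of these differences are uncertain. The oxysterol hydroxylase Cyp7b1 fell by 1.76, the complement genes C6 and C8b by 1.74 and 1.77, and Moxd1 by 5.11, to an HKO mean of 2.83 that lies below the median gene, so that its size is uncertain too. In fits that left out 1 array, Cyp7b1 passed in 1 of 6 and C6, C8b and Moxd1 in 6 of 6. The part of these genes in the differences of the transferases was not tested.

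Genes of the liver lobule were measured as well, since hepatocytes near the central vein are known for higher transferase levels. None of 15 pericentral genes passed in the limma fit (5 at an unadjusted p under 0.05, beside 13% of all genes), with Cyp7a1 at -0.61 ± 0.18 (adjusted p = 0.2; 0.0429 without HKO 1), Cyp27a1 at -0.23 ± 0.08 (0.257), Oat at 0.57 ± 0.20 (0.281) and a median of 0.08. None of 13 periportal genes passed (2 at an unadjusted p under 0.05, near that share), with the cadherin gene Cdh1 at -1.38 ± 0.29 (0.0805), Cyp2f2 at -0.40 ± 0.09 (0.116; 0.0391 with the trend and robust options), Hsd17b13 at 0.31 ± 0.15 (0.431) and a median of -0.01.

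**Figure D5:**
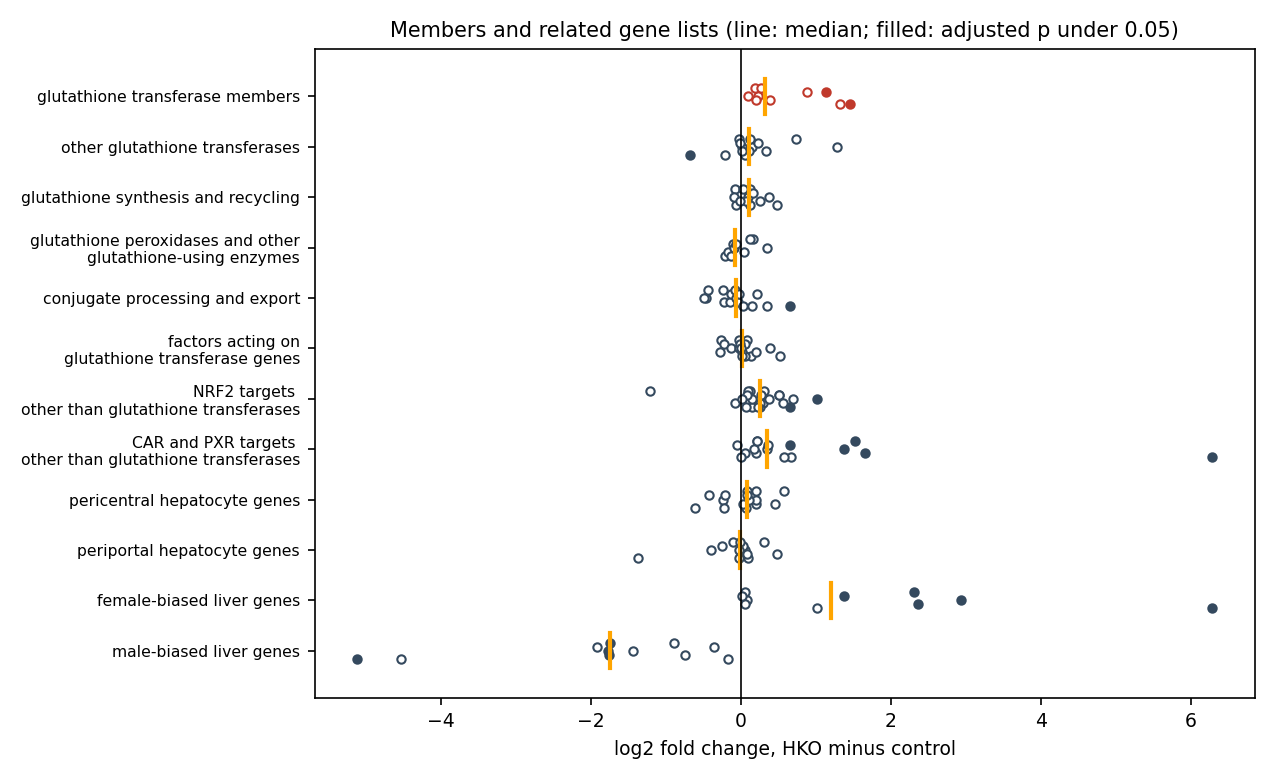
Log2 fold change, HKO minus control (horizontal axis), of the 10 members (red, top) and of the measured genes of 11 related lists (dark, below), each point a gene, filled where the adjusted p was under 0.05, with the list median as an orange line. The member median is 0.33, beside 0.26 for NRF2 targets, 0.35 for CAR and PXR targets, 1.20 for female-biased and -1.74 for male-biased genes.

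Markers of other liver cells gave no gene past the threshold. The mean over the 9 hepatocyte markers ran from 12.45 to 12.63 in HKO livers and from 12.56 to 12.62 in control livers. The mean over the 9 markers of Kupffer cells and macrophages ran from 7.55 to 8.07 in HKO livers and from 7.29 to 8.00 in control livers. The mean over the 5 cholangiocyte markers ran from 2.89 to 2.99 in HKO livers and from 3.17 to 3.26 in control livers, so the genotypes did not overlap. All 5 markers had negative log2 fold changes and lay below the median gene, with Sox9 at -0.66 ± 0.18 (adjusted p = 0.171). The means over the markers of neutrophils, lymphocytes, endothelial cells, stellate cells, adipocytes and erythrocytes overlapped between the genotypes. Of the adipocyte markers, Fabp4 stood at 0.80 ± 0.19 (0.135) with no overlap. Adipoq (-0.08) and Lep (-0.05) were negative and lay below the median gene. The part of the cholangiocyte markers and of Fabp4 in the differences of the transferases was not tested.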

How the data were processed

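Biotin-labelled cRNA was prepared from 400 ng of Trizol-extracted liver RNA, per the labels' protocols. For 38208 probe sets on each of 6 arrays the authors deposited log2 values made with RMA, per the submitters' processing notes, where limma is named too. The sources used here give no versions or settings. RMA hides a shift of all transcripts and shrinks the differences of dim probe sets.

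The 34325 probe sets with 1 platform symbol were kept, leaving out 13 controls, 62 with several symbols and 3808 unnamed here. For each of 18029 genes the brightest probe set, by its mean on all arrays, stood for the gene, and every member probe set was also tested in a fit over probe sets. All 10 members lie above the median gene (4.69), and 3 have more than 1 probe set.

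HKO minus control was fitted with limma 3.58.1 in R 4.3.3 (lmFit, eBayes, two-sided, no term but genotype), and p-values were Benjamini-Hochberg adjusted over all genes or probe sets with a threshold of 0.05. An exact permutation test of 3 against 3 cannot give a p below 0.1. No pair of arrays held identical values. Errors are SD for group means and SE for fold changes. The steps were tested on simulated data. A first simulator, which took limma's shrunken variances as the true spread, gave more false calls than the threshold allows, and it was replaced by one that draws variances from the fitted prior. The members and the gene lists were chosen with earlier results of these data known. Named genes were the members, Tmbim1 and, of each list, those past the threshold or up to 3 with the lowest p, while Cyp2b10, Gstm5, Gstm7 and the markers Sox9 and Fabp4 were named outside this rule, with their values seen. For the member with the lowest p in each class, the 3 genes above the median gene with the smallest root mean square difference in profile were taken. Alternatives covered the probe set choice, normalization, dim genes, variance model, array weights, threshold, a replicate block and leaving out each array.

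Samples of the same number are not stated to be shared between genotypes, and their deviations from the group means correlated at -0.09, 0.07 and 0.11 for numbers 1, 2 and 3, so the numbers were not used as pairs.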

Additional observations from a re-analysis of the deposited data

How the results depend on the processing

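The 2 transferase genes past the threshold became 1 with eBayes's trend and robust options and 0 with the replicate block (limma; 8 members had an unadjusted p under 0.05 there, beside 12.6% of all genes) or at an adjusted p under 0.01. Without 1 array they ranged from 0 to 3. The 2 probe sets past the threshold became 1 with the trend and robust options, 1 with the replicate block, and 0 to 2 without 1 array. Over all genes the 182 calls became 65 at 0.01, 344 at 0.1, and 78 to 161 without 1 array, where fewer arrays enter each fit. The 14 calls among the listed genes ranged from 9 to 18 without 1 array. The class medians moved by less than their spread between replicates in every refit. Without 1 array Gstm4 ranged from -0.039 to 0.20, negative without control 1 and without HKO 3 (-0.02), the only change of sign among the members. With the replicate block the adjusted p was 0.109 for Gsta2, 0.0926 for Gstm2 and 0.0947 for Abcc3, and Osgin1 (0.0397) and Cdh1 (0.0216) passed. Same-numbered arrays are not stated to share more than a number. The block left the log2 fold changes of Gsta2 (1.45) and Gstm2 (1.13) as they were. Why calls were lost or gained under it was not tested. The cause of the other changes was not tested. Only 3 arrays a genotype and RMA's floor for dim probe sets limit what could be detected.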

Other observations

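Genes with a profile over the 6 arrays closest to that of a transferase were listed by the root mean square difference of values centred on each gene's own mean, among 8784 genes above the median gene. Closest to Gsta2 were Plk3, a stress-responsive kinase (0.18 log2 units), the keratin gene Krt23 (0.29) and the membrane peptidase gene Mme (0.30). Plk3 averaged 7.58 ± 0.26 in HKO livers and 6.23 ± 0.34 in control livers (SD, n = 3 each), and like Gsta2 it was highest in HKO 1 and lowest in control 1. Closest to Gstm2 were Bhlhb9 (0.14), the retinol dehydrogenase Rdh16 (0.15) and the monocarboxylate transporter gene Slc16a7 (0.16). Like Gstm2, whose profile they were picked to match, all of them were highest in HKO 3. Slc16a7 averaged 8.30 ± 0.27 in HKO livers and 7.02 ± 0.08 in control livers (SD, n = 3 each). Closest to Gstt3 were Serpina6, which encodes the plasma carrier of glucocorticoids (0.13), the thioesterase Acot4 (0.15) and the nucleoporin gene Nupl1 (0.17). Serpina6 averaged 10.04 ± 0.21 in HKO livers and 9.20 ± 0.23 in control livers (SD, n = 3 each). With 6 arrays, likeness of this kind is a description of these samples. Genes were picked for a profile like the member's, so sharing its highest or lowest array is favoured by the choice and is no separate result.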
